A study of Mus musculus with 12 samples.

Results

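The genes described here are 7 that serve antigen presentation by MHC class I in the mouse: B2m, H2-K1, H2-D1, Tap1, Tap2, Tapbp and Nlrc5. They were chosen by name through the gene annotation of the array, where 8 of 23473 probes carry their symbols, Tapbp having a second probe. All 7 were among the 16942 genes tested. RNA was measured on 12 single-colour (Cy5) Toray 3D-Gene mouse arrays, with 3 arrays for each of 4 sorted populations of T cells. The cells were taken from Peyer's patches, lymphoid tissue of the gut, of pools of 3 to 5 C57BL/6 mice of both sexes, 10 weeks old, for which the labels name no treatment and no genetic change. The DN fraction was gated as γδTCR-, TCRβ+, CD4- and CD8β-, the CD8 fraction as γδTCR-, TCRβ+, CD4- and CD8β+, and the γδ fraction as γδTCR+ and TCRβ-. The CD4 fraction was gated as γδTCR-, TCRβ+ and CD4+, with CD8β written without a sign. The labels state a purity above 98% after sorting and 3 rounds of RNA collection. They do not say whether the rounds used separate mice, so the p-values below measure the spread between these samples, which may be technical.

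MHC class I molecules display peptides from the cell's own proteins to CD8 T cells and are made by nearly all nucleated cells. The TAP transporter carries peptides into the endoplasmic reticulum, tapasin holds empty class I molecules beside it, and a heavy chain bound to β2-microglobulin takes up the peptide and travels to the surface. MHC class II molecules, by contrast, display peptides from ingested material to CD4 T cells and are mostly made by B cells, dendritic cells and macrophages. NLRC5 and CIITA, related proteins, switch on class I and class II genes respectively.

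The spot signals of the arrays had medians of 70.7 to 77.9, against a mean of 58.6 to 62.2 for the blank spots, and 18930 to 21394 probes per array were listed as above background in the deposited value table. The library labelled CD8 1 and the library labelled γδ 1 went against their labels: Cd8b1, the CD8β chain used in the sort, had a log2 signal of 8.57 in CD8 1 against 13.80 and 13.62 in CD8 2 and CD8 3, and of 13.91 in γδ 1 against 8.29 and 8.14 in γδ 2 and γδ 3. Cd163l1, grouped here with the sort genes, had 8.23 in CD8 1 against 6.12 and 6.18 in CD8 2 and CD8 3. It had 6.10 in γδ 1 against 8.57 and 8.48 in γδ 2 and γδ 3. Whether the 2 libraries were exchanged was not tested. Results are therefore given with all 12 libraries as labelled and without these 2. Cd8a, the CD8α chain, which the gates do not name, had 14.42, 14.35 and 14.22 in DN, beside 14.70, 13.85 and 13.49 in CD8. All 10 T cell markers tested were listed on every array. Their summed value in the value table was 9519 to 9763 in DN, 13460 and 11491 in γδ 2 and γδ 3 and 12673 in CD8 1, against 24971 to 45548 in the other 6 libraries. B cell markers were also present: their summed value (16 genes) was 17706 to 18054 in DN, 14247 and 13923 in γδ 2 and γδ 3, 9156 in CD8 1, and 1515 to 2409 in the other 6 libraries. In DN all 16 were listed on each array, and in the other libraries 15 or 16 were, so being listed does not set DN apart.

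The differences measured between the 4 fractions in the class I processing genes were small, but some intervals were wide. They ran from -0.95 to 1.22 for H2-K1 in DN against CD4 and from -1.58 to 0.79 for Tap2 in DN against CD8. H2-D1 and Nlrc5 lay within 1.5 times the blank signal, which limits what they can show. With the libraries as labelled, 0 of the 7 genes differed in any of the 6 comparisons between fractions or in the F test over all 4 by limma, and 0 of the 42 differences reached an unadjusted p under 0.05, where 7.65% of the differences of all genes did. The largest difference was that of Tapbp, the tapasin gene, which was 0.55 lower in CD4 than in γδ on the log2 scale. Without CD8 1 and γδ 1, 1 of 42 differences passed, again Tapbp between CD4 and γδ. Between DN and CD8 the 7 genes then differed by -0.80 to 0.31 (median -0.19). The 13 MHC class II genes tested differed by -0.64 to 6.00 (median 1.64). In this fit CD8 lacks replicate 1, which was run on another array series, while DN keeps it. With the series as a term the 7 genes differed by -0.44 to 0.3 (median -0.05). The class II genes then differed by -0.41 to 6.03 (median 1.82). Values in bulk RNA do not tell fewer cells of a type from less RNA per cell.

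The shares of all genes called with the libraries as labelled were 2.28% for DN against CD4, 0.0177% for DN against CD8, 0.0118% for DN against γδ, 1.07% for CD4 against CD8, 1.14% for CD4 against γδ, 0% for CD8 against γδ and 1.18% for the F test. A count of 0 of 7 is thus near the background in each of them. The median difference of the 7 genes lay between -0.04 and 0.02 in the 6 comparisons, beside -0.01 to 0.00 for all genes tested.

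The promoters are shown because both classes of genes are known to share an SXY module, a row of short elements that includes the X2 and Y boxes and on which NLRC5 and CIITA act. RefSeq windows of 250 bases before to 50 bases after the start (GRCm38.p6) were given for 5 of the 7 genes. Those of B2m (chr2:122147437-122147736, plus strand), H2-K1 (chr17:34000298-34000597, minus strand) and Tap1 (chr17:34187306-34187605, plus strand) stand beside the class II genes H2-Aa (chr17:34287774-34288073, minus strand) and H2-Eb1 (chr17:34305617-34305916, plus strand). Capitals mark the letters searched on both strands: CCAAT of the Y box, TGACG of the X2 box and GAANNGAAA of an interferon response element.
B2m: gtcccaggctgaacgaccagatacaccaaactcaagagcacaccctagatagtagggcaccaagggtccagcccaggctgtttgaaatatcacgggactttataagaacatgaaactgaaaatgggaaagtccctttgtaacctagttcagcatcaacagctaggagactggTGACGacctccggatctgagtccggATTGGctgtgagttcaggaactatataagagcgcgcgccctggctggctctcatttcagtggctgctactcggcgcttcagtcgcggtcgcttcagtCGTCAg
H2-K1: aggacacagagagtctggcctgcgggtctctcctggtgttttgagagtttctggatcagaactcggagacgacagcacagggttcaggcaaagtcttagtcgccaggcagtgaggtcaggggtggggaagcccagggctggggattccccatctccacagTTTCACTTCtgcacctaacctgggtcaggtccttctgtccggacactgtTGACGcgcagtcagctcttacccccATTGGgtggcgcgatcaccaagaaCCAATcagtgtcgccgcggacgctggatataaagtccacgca
Tap1: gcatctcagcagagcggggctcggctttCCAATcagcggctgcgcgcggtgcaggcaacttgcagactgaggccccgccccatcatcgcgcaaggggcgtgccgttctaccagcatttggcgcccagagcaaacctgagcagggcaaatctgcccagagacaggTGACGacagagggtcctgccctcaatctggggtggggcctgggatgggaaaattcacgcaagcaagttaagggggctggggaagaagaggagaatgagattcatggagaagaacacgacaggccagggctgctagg
H2-Aa: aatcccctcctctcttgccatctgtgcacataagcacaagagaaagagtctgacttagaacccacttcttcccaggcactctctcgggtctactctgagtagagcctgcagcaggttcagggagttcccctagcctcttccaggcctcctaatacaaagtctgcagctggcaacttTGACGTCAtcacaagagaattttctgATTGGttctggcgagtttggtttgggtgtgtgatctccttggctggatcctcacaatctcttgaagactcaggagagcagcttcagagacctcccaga
H2-Eb1: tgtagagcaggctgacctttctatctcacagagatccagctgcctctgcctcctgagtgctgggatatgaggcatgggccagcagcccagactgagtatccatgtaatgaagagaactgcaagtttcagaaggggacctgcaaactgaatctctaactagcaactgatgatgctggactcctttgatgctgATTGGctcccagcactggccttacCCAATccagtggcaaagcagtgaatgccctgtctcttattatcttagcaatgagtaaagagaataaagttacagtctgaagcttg

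The Y box letters were present in 37.4% of all 32544 windows of that length, the X2 letters in 20.9%, the interferon element in 7.57% and all 3 in 0.479%. H2-K1 and H2-D1, the heavy chain genes, each held all 3, with X2 41 bases before the start in H2-K1 and 101 bases before it in H2-D1. In B2m the X2 letters began 78 bases and the Y box 53 bases before the start. H2-Aa had a like pair, with X2 on both strands in overlapping matches at 74 and 71 bases and the Y box at 48 bases before the start. Tap1 held X2 at 86 bases and the Y box at 222 bases before the start, Tapbp held only Y box letters (2 matches), and H2-Eb1 only Y box letters as well (2 matches, at 59 and 35 bases). These are matches of letters and not binding sites.

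**Figure D1:**
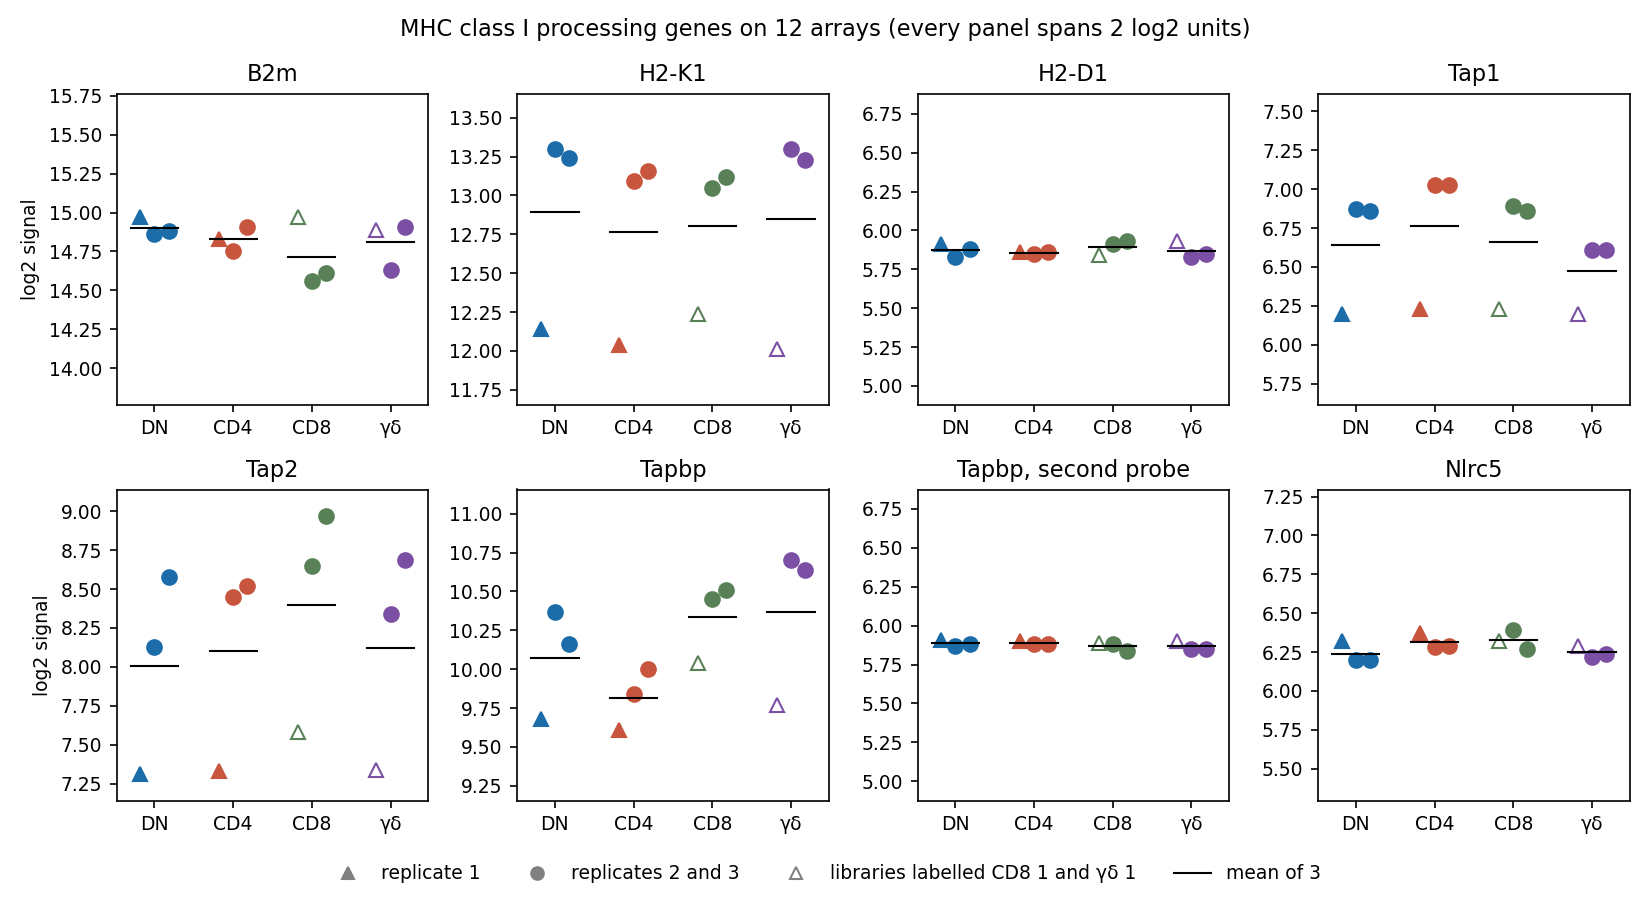
Log2 signal (y axis) of the 8 probes of the 7 genes on the 12 arrays, by fraction as labelled; triangles are replicate 1, circles replicates 2 and 3, open triangles the libraries labelled CD8 1 and γδ 1, and bars the mean of 3. Within a probe the fractions overlap almost throughout, and for H2-K1, Tap1, Tap2 and Tapbp the triangles sit below the circles of their fraction.

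B2m encodes β2-microglobulin, the light chain shared by all classical class I molecules. Its log2 signals were 14.97, 14.86 and 14.88 in DN 1 to 3, 14.83, 14.75 and 14.91 in CD4, 14.97, 14.56 and 14.61 in CD8, and 14.89, 14.63 and 14.91 in γδ. The spot was 383 to 557 times as bright as the blanks, at a signal of 23320 to 34401, below the scanner limit of 65535. On this quantile normalised scale all 12 values lie within 0.41 of each other and the 4 fractions overlap. The spread was wider in the value table, from 14.71 in γδ 2 to 16.01 in γδ 1 on the log2 scale. DN and CD4 differed by 0.07 (95% interval -0.19 to 0.32, adjusted p = 0.932 by limma), a difference that turns to -0.28 under median scaling and -0.23 in the value table. Without CD8 1, B2m was 0.31 ± 0.09 (SE) higher in DN than in CD8 with an adjusted p of 0.0575 by limma. The value table gave -0.16, so the direction of this difference does not hold across scalings.

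H2-K1 encodes the heavy chain of the class I molecule H-2K. Its log2 signals were 12.14, 13.30 and 13.24 in DN, 12.04, 13.09 and 13.16 in CD4, 12.24, 13.05 and 13.12 in CD8, and 12.01, 13.30 and 13.23 in γδ. In each fraction replicate 1 was low and replicates 2 and 3 were high, and the fractions overlap. The means were 12.89 ± 0.65, 12.76 ± 0.63, 12.80 ± 0.49 and 12.85 ± 0.73 (SD, n = 3 each). DN and CD4 differed by 0.13, with an interval of -0.95 to 1.22 (adjusted p = 0.981), which turns to -0.31 under median scaling and -0.26 in the value table. Heavy chain genes of this family are near copies of each other, so which of them this probe reads is uncertain.

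The H2-D1 probe, for the heavy chain of H-2D, gave no more than 1.16 times the blank signal on any array. Its log2 signals were 5.91, 5.83 and 5.88 in DN, 5.86, 5.85 and 5.86 in CD4, 5.84, 5.91 and 5.93 in CD8, and 5.93, 5.83 and 5.85 in γδ. The value table lists it on 12 of 12 arrays, at spot signals of 63.7 to 69.4. A spot this near the blanks says little about the level of the H2-D1 transcript, and none of its 6 differences was larger than 0.04 in size on the normalised scale with all 12 libraries (0.33 in the value table). Without CD8 1 and γδ 1 the difference between CD8 and γδ reached 0.08 (0.77 in the value table). The annotation gives this probe a symbol without an accession.

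Tap1 and Tap2 encode the subunits of the peptide transporter. The Tap1 signals were 6.20, 6.87 and 6.86 in DN, 6.23, 7.03 and 7.03 in CD4, 6.23, 6.89 and 6.86 in CD8, and 6.20, 6.61 and 6.61 in γδ. Among replicates 2 and 3 the γδ libraries were the lowest and the CD4 libraries the highest. The replicate 1 libraries lay within 0.04 of each other, at only 1.22 to 1.36 times the blank signal. CD4 exceeded γδ by 0.29 (-0.35 to 0.94, adjusted p = 0.953), by 0.33 under median scaling and by 0.64 in the value table. With CD8 1 and γδ 1 left out, the difference was 0.15, and 0.30 in the value table. CD4 then keeps its low replicate 1 and γδ does not. Within replicate 2 and within replicate 3 the difference was 0.42.

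The Tap2 signals were 7.31, 8.13 and 8.58 in DN, 7.33, 8.45 and 8.52 in CD4, 7.58, 8.65 and 8.97 in CD8, and 7.34, 8.34 and 8.69 in γδ. CD8 was the highest of the 4 fractions within each replicate number, with replicate 1 being the library labelled CD8 1. The fractions overlap all the same: DN lay 0.39 below CD8 with an interval of -1.58 to 0.79 (adjusted p = 0.923). Without CD8 1 and γδ 1 it lay 0.80 ± 0.46 below CD8 (adjusted p = 0.325). CD8 then lacks replicate 1, which was low in every fraction, while DN keeps it. In replicates 2 and 3 alone DN lay 0.45 ± 0.19 below CD8 (adjusted p = 0.131). Over all 12 libraries the sign of the difference between DN and CD8 was the same under the 3 scalings.

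Tapbp encodes tapasin, which ties empty class I molecules to the transporter. The signals of its brighter probe were 9.68, 10.37 and 10.16 in DN, 9.61, 9.84 and 10.00 in CD4, 10.04, 10.45 and 10.51 in CD8, and 9.77, 10.70 and 10.64 in γδ. All 3 CD4 values lie below all 3 CD8 values, and below γδ 2 and γδ 3 but not γδ 1. CD4 and CD8 do not overlap in 12.2% of all genes. CD4 was lower than CD8 and lower than γδ within 3 of 3 replicate numbers. The difference between CD4 and CD8 was -0.51 ± 0.27 (interval -1.12 to 0.10, adjusted p = 0.858) and that between CD4 and γδ -0.55 ± 0.27 (-1.16 to 0.06, adjusted p = 0.605). Both kept their sign under median scaling (-0.53 and -0.48) and in the value table (-0.56 and -0.60). The second Tapbp probe stayed at 1.07 to 1.13 times the blanks, with log2 signals of 5.84 to 5.91, and shows no order of the fractions.

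Nlrc5 encodes the transactivator of class I genes. Its signals were 6.32, 6.20 and 6.20 in DN, 6.37, 6.28 and 6.29 in CD4, 6.32, 6.39 and 6.27 in CD8, and 6.29, 6.22 and 6.24 in γδ, at 1.27 to 1.47 times the blanks. The fractions overlap. DN lay 0.08 below CD4 (-0.18 to 0.03), the smallest adjusted p of any of the 7 genes in a comparison at 0.580.

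Leaving out CD8 1 and γδ 1 changed 1 call. Tapbp was lower in CD4 than in γδ, by 0.85 ± 0.19 on the log2 scale (log2 means 9.82 and 10.67, adjusted p = 0.0390), in a comparison in which 9% of all genes were called. That call held only when DN 1 or DN 2 was the further library left out, and without any of the other 8 libraries the adjusted p exceeded 0.05, up to 0.221 without γδ 2. Here and in the later fits without CD8 1 and γδ 1, CD8 and γδ have 2 libraries each, so leaving out a further one leaves a lone library, which the fit assumes to vary like the other fractions. The value table gave -0.73 for it. Tapbp was also 0.66 ± 0.19 lower in CD4 than in CD8, with an adjusted p of 0.116, where 5.39% of all genes were called. In the other comparisons 0 of 7 genes were called, beside 10.6% of all genes for DN against CD4, 12.9% for DN against CD8, 0.968% for DN against γδ, 7.38% for CD8 against γδ and 14.7% in the F test. At an unadjusted p under 0.05 there were 6 of 42 differences in this fit, beside 19.5% of those of all genes, a share no larger than the background.

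**Figure D2:**
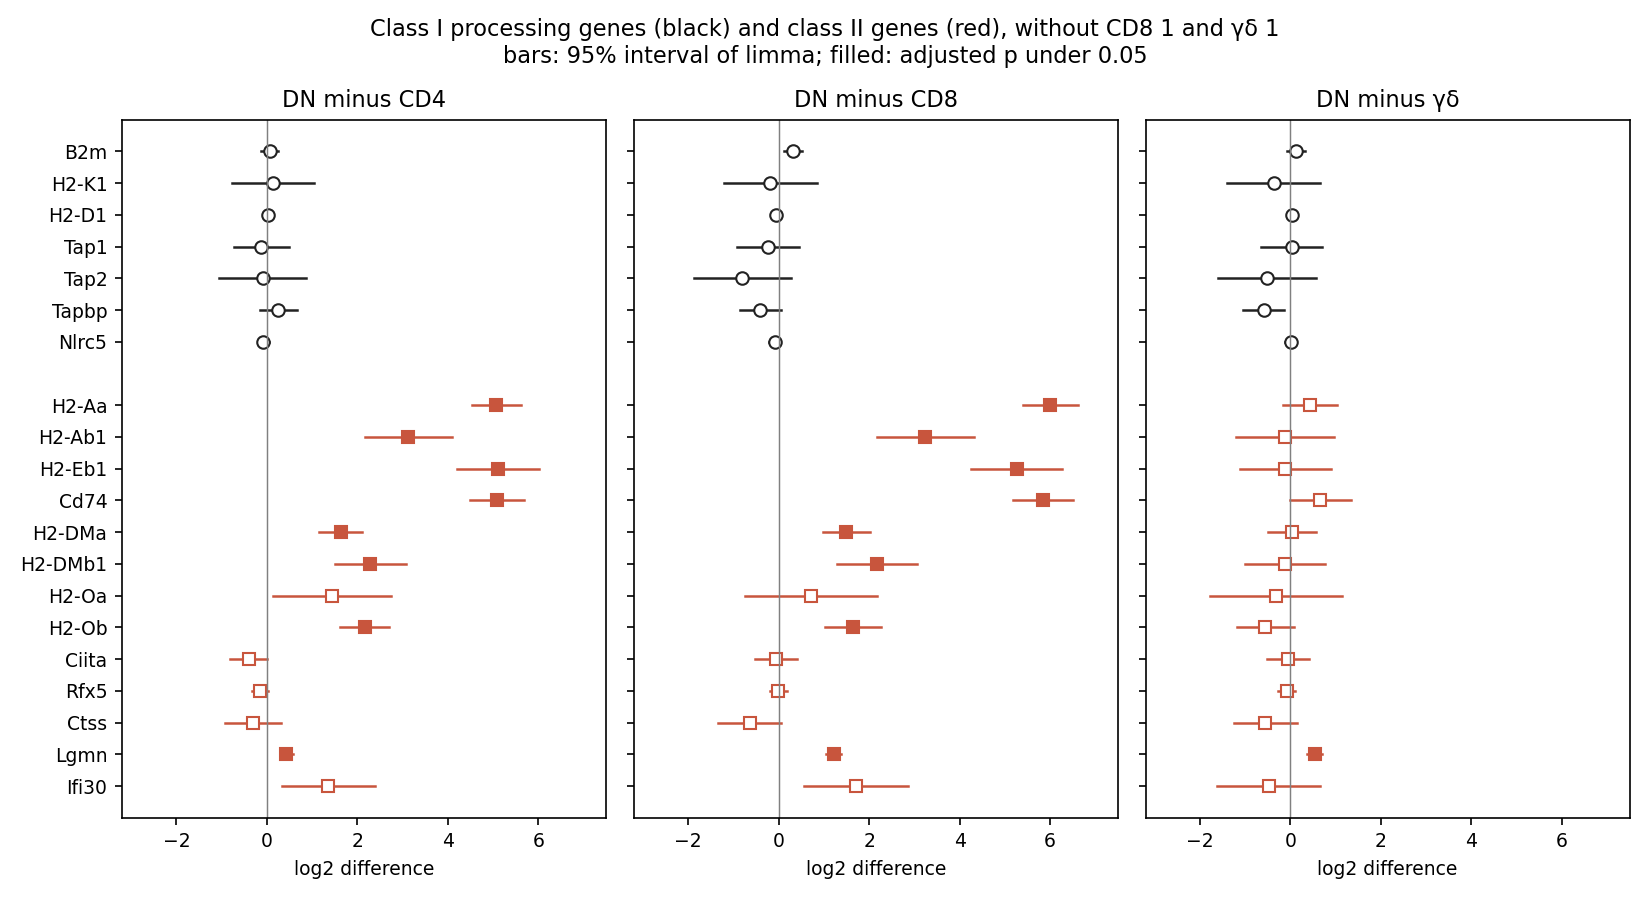
Log2 difference of DN from CD4, CD8 and γδ (x axis) without the libraries labelled CD8 1 and γδ 1, for the 7 class I processing genes (circles) and 13 class II genes (squares), with the 95% interval of limma; filled symbols have an adjusted p under 0.05. The class I genes lie between -0.80 and 0.31, with signs of B2m and H2-K1 that depend on the scaling. H2-Aa, H2-Eb1 and Cd74 exceed 5 in DN against CD4. CD8 and γδ lack replicate 1 in this fit, while DN and CD4 keep it, so differences from CD8 and γδ include the array series. With the series as a term the class I genes ran from -0.44 to 0.3 against CD8 and from -0.44 to 0.27 against γδ. H2-K1 against CD8 went from -0.19 to 0.18.

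The class II genes gave a different picture in the same libraries. H2-Aa, the α chain of the class II molecule I-A, had log2 signals of 14.02, 14.22 and 14.08 in DN, 9.63, 8.64 and 8.85 in CD4, 13.60, 8.06 and 8.16 in CD8, and 9.40, 13.63 and 13.72 in γδ. DN, γδ 2, γδ 3 and CD8 1 were thus high, and CD4, CD8 2, CD8 3 and γδ 1 low. As labelled, 0 of the 13 class II genes passed in any comparison, with CD8 1 and γδ 1 on the opposite side from the other libraries of their label, and H2-Aa differed by 5.07 ± 1.55 between DN and CD4 (adjusted p = 0.147). With the replicate number as a block, 3 of 13 were called in DN against CD4, where 5.29% of all genes were: H2-DMa (1.63, adjusted p = 0.0474) and H2-Oa (1.43, 0.0445), of the molecules that help and restrain class II loading, were higher in DN, and Ciita, the class II transactivator, was lower (-0.40, 0.0499). The array series as a term added H2-DMb1 (2.29, 0.0486), partner of H2-DMa, and Rfx5, an X box factor (-0.16, 0.0347), and called Ciita as higher in CD4 than in CD8 (0.46, 0.0279) and γδ (0.42, 0.0317).

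Once CD8 1 and γδ 1 were left out, DN exceeded CD4 in 8 of 13 class II genes (median difference 1.63) and CD8 likewise in 8 of 13 (median 1.64). H2-Aa exceeded CD4 by 5.07 ± 0.23 (adjusted p = 1.44e-05), H2-Eb1, a β chain, by 5.11 ± 0.38 (0.000185) and Cd74, the invariant chain that guards the class II groove, by 5.09 ± 0.25 (2.41e-05). H2-Ab1 rose by 3.13 ± 0.41 (adjusted p = 0.00304). In CD4 7 of 13 and in CD8 8 of 13 class II genes were lower than in γδ, where 9% and 7.38% of all genes were called in either direction. Between DN and γδ 1 of 13 (Lgmn, a lysosomal protease) differed, where 0.968% of all genes were called. These counts, and that of DN against CD8, changed when a further library was left out, and CD8 and γδ have only 2 libraries each here. Ciita differed by -0.40 ± 0.18 between DN and CD4 (adjusted p = 0.244). Of all 16942 genes, 860 were called higher and 936 lower in DN than in CD4 in this fit. Against CD8, 1013 were higher and 1177 lower. The B cell markers moved with the class II genes: DN exceeded CD4 in 12 of 16 and CD8 in 11 of 16. So did intestinal epithelium markers, in 10 and 9 of 16 (summed value 1092 to 1330 in DN, 451 to 510 in CD4), and dendritic cell markers, in 3 of 7 each (467 to 640 in DN, 188 to 321 in CD4). T cell markers were called lower in DN in 5 of 10 each and higher in 0 of 10. They did not all go 1 way: their differences ran from -3.99 to 0.96 against CD4 and from -2.52 to 0.75 against CD8. Of 9 macrophage and monocyte markers 0 exceeded CD4 or CD8 in DN and 2 were below CD8, as was 1 dendritic cell marker, and of 6 plasma cell markers 1 exceeded CD4 and 2 exceeded CD8. The part of these cell types in the class II difference was not tested.

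**Figure D3:**
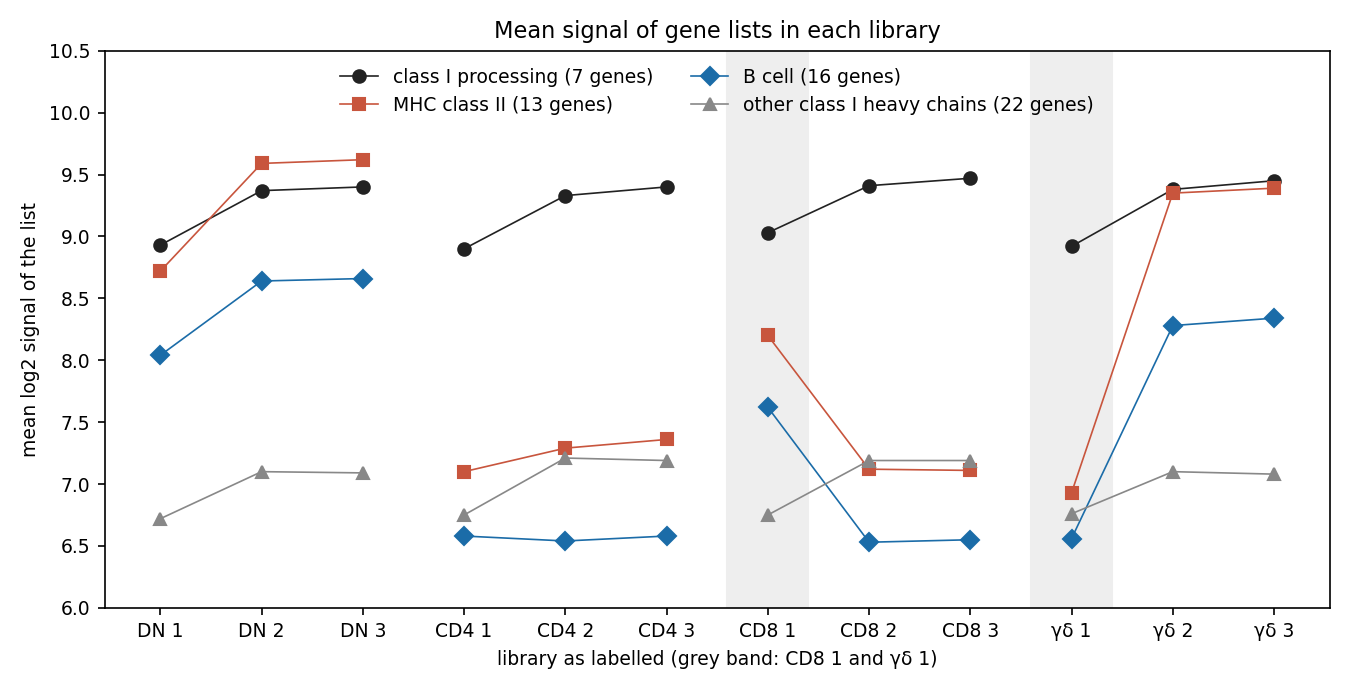
Mean log2 signal (y axis) of gene lists in each of the 12 libraries (x axis, as labelled; grey bands mark CD8 1 and γδ 1). The class I processing genes stay between 8.90 and 9.47, lower in each replicate 1, while the class II list runs from 6.93 to 9.62 and the B cell list from 6.53 to 8.66, both with CD8 1 and γδ 1 unlike the other libraries of their label.

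The mean log2 signal of the 7 class I genes was 8.93 in DN 1, 8.90 in CD4 1, 9.03 in CD8 1 and 8.92 in γδ 1, and 9.33 to 9.47 in the other 8 libraries. The class II list had 8.72 in DN 1 and 8.20 in CD8 1, against 7.10 in CD4 1 and 6.93 in γδ 1. By this class I mean CD8 1 was the highest of the 4 replicate 1 libraries, most of all in Tapbp and Tap2, and γδ 1 lay between DN 1 and CD4 1. Within replicates 2 and 3, the class I mean was 9.37 to 9.45 in DN and γδ and 9.33 to 9.47 in CD4 and CD8. A mean can hide opposite differences of single genes: in these libraries Tap1 was lowest in γδ and Tapbp lowest in CD4. It also holds H2-D1 and Nlrc5, which lay within 1.5 times the blank signal. The part of B cells in the class I signal was not tested.

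The larger shift in the class I genes was between the array series. The labels and array names place replicate 1 of every fraction on 4 arrays of 1 series and replicates 2 and 3 on 8 arrays of another. With the series as a term over 12 arrays, 4 of the 7 genes were higher in replicates 2 and 3, where 40.7% of all genes differed and 18.9% were higher. H2-K1 rose by 1.08 ± 0.06, Tap2 by 1.15 ± 0.10, Tap1 by 0.63 ± 0.05 and Tapbp by 0.56 ± 0.09 (adjusted p = 5.72e-06, 6.57e-05, 3.63e-05 and 0.00123 by limma). B2m (-0.15 ± 0.07, adjusted p = 0.126), H2-D1 (-0.01) and Nlrc5 (-0.06) did not pass. The H2-K1, Tap1 and Tap2 differences had the same sign in all 4 fractions on both scales. On the value table, where the median of all genes shifted by -0.29, 47.9% of all genes differed and 13.1% were higher, the series differences were 0.73 for H2-K1, 1.35 for Tap2, 1.44 for Tap1, 0.21 for Tapbp (adjusted p = 0.204) and -0.63 for B2m (adjusted p = 0.00961). Round of RNA collection and array series cannot be told apart.

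**Figure D4:**
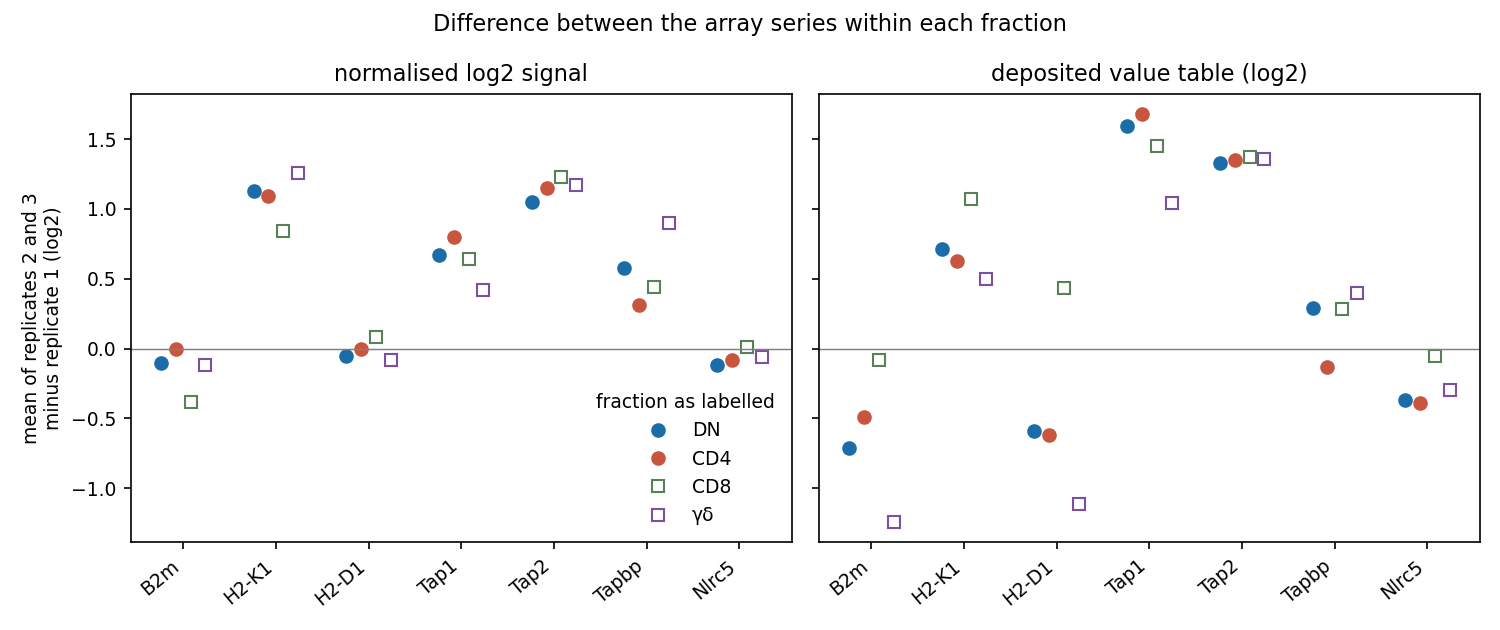
Mean of replicates 2 and 3 minus replicate 1 (y axis, log2) for each class I gene and each fraction as labelled (filled circles DN and CD4, open squares CD8 and γδ), on normalised signals (left) and on the deposited value table (right). H2-K1, Tap1 and Tap2 lie above 0 in every fraction on both scales, and B2m at or below 0 on both.

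Once the series was a term in the fit, more differences between fractions passed. Over all 12 arrays Tapbp was lower in CD4 than in γδ (-0.55 ± 0.12, adjusted p = 0.0397) and Tap1 higher (0.29 ± 0.07, adjusted p = 0.0492), 2 of 7 genes where 4.33% of all genes were called. With the replicate number as a block in its place, neither passed (adjusted p = 0.0731 and 0.0863, with 2.94% of all genes called). In the other comparisons 0 of 7 were called, beside 8.48% of all genes for DN against CD4, 0.466% for DN against CD8, 0.106% for DN against γδ, 3.16% for CD4 against CD8, 0% for CD8 against γδ and 4.74% in the F test.

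Without CD8 1 and γδ 1 and with the series as a term, 11 of 42 differences passed, in Tap1, Tapbp and H2-K1. The background was large: 25.4% of all genes were called for DN against CD4 (2 of the 7), 26.5% for DN against CD8 (1), 6.26% for DN against γδ (2), 16.8% for CD4 against CD8 (2), 22% for CD4 against γδ (2), 19.9% for CD8 against γδ (2) and 34.8% in the F test (3). In this fit CD8 and γδ hold only replicates 2 and 3. Tap1 was lower in γδ than in CD4 by 0.40 ± 0.03 (adjusted p = 0.000474), than in DN by 0.27 ± 0.03 (0.00903) and than in CD8 by 0.26 ± 0.04 (0.00327). Tapbp was lower in CD4 than in γδ by 0.70 ± 0.09 (0.00287) and than in CD8 by 0.51 ± 0.09 (0.0137), and lower in DN than in γδ by 0.44 ± 0.09 (0.0437). H2-K1 was higher in DN than in CD4 by 0.13 ± 0.04 (0.0347) and than in CD8 by 0.18 ± 0.04 (0.0189), and lower in CD8 than in γδ by 0.18 ± 0.04 (0.0275).

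Of these, Tap1 and Tapbp in CD4 against γδ and Tap1 in CD8 against γδ were called whichever of the 10 libraries was left out, a lone γδ or CD8 library included under the assumption above, with adjusted p up to 0.00648, 0.0264 and 0.0261. Tap1 in DN against γδ lost its call without γδ 2 or γδ 3 (up to 0.0663), and Tapbp in CD4 against CD8 without CD8 2 or CD8 3 (up to 0.0828). Tapbp in DN against γδ lost it without γδ 2, γδ 3, DN 3, CD4 3, CD8 2 or CD8 3 (up to 0.207). H2-K1 lost it in DN against CD8 without DN 2 or CD8 2 (up to 0.103), in CD8 against γδ without CD8 2, γδ 2 or γδ 3 (up to 0.146), and in DN against CD4 without any 1 of the 6 DN and CD4 libraries (up to 0.118). Tap1 in DN against CD4 (-0.12 ± 0.03, adjusted p = 0.0247) lost it without DN 2, DN 3, CD4 2 or CD4 3, and in CD4 against CD8 (0.13 ± 0.03, 0.0451) without any 1 library but DN 1 and CD4 1. On the value table the same fit called Tap1 (0.84 ± 0.15, adjusted p = 0.00674) and Tapbp (-0.70 ± 0.19, 0.0384) in CD4 against γδ, where 14.3% of all genes were called. It gave H2-K1 as lower in DN than in CD8 (-0.53, adjusted p = 0.0433, with 19.9% of all genes called), the opposite of the normalised signals.

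Replicates 2 and 3 alone gave Tap1 as 0.42 ± 0.02 higher in CD4 than in γδ (adjusted p = 4.28e-05, with 30.3% of all genes called) and Tapbp as 0.74 ± 0.08 lower (0.00122). Within replicate 1, with 1 library a fraction and hence no test, the same differences were 0.03 for Tap1 and -0.15 for Tapbp. Both use γδ 1, whose Cd8b1 goes against its label, and against CD8 1 the CD4 library differed by 0.00 for Tap1 and by -0.42 for Tapbp.

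**Figure D5:**
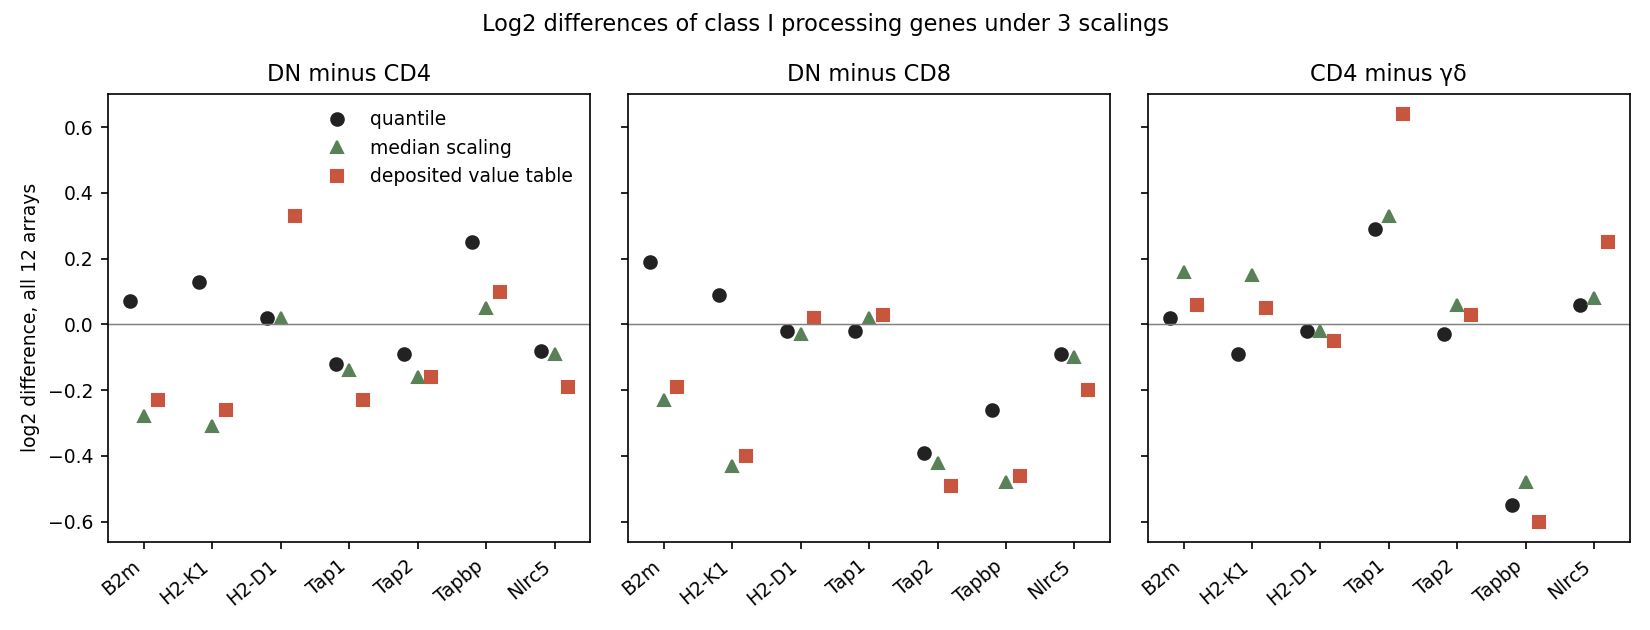
Log2 difference (y axis) of each class I gene in 3 comparisons over all 12 arrays, after quantile normalisation, after median scaling and on the deposited value table. Tapbp and Tap1 in CD4 minus γδ keep their sign in all 3, whereas B2m and H2-K1 change sign in DN minus CD4 and DN minus CD8.

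The sign of a difference was the same under quantile normalisation, median scaling and the value table in 27 of 42 cases. For B2m that held in 2 of 6 comparisons and for H2-K1 in 1 of 6, so no order of the fractions can be given for these genes. It held in 5 of 6 for Tap1, Tap2, Tapbp and Nlrc5, and in 4 of 6 for H2-D1. In DN against CD8, H2-K1 moved from 0.09 to -0.43 and -0.40, and B2m from 0.19 to -0.23 and -0.19.

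The other genes of the pathway were examined by lists chosen with earlier results of these data known. The peptide supply list (10 of 12 genes tested) holds the immunoproteasome subunits and the peptidases that trim peptides. As labelled, 0 of 10 were called in any comparison, and without CD8 1 and γδ 1 only Psme3, a proteasome activator, was higher in CD4 than in CD8 (0.54 ± 0.11, adjusted p = 0.0388) and γδ (0.73 ± 0.11, adjusted p = 0.00706). Psmb8, an immunoproteasome subunit, had log2 signals of 12.07, 11.98 and 12.37 in DN and 11.22, 11.69 and 11.97 in CD4, all 3 DN values being above those of CD4 (DN and CD4 do not overlap in 24.8% of all genes), yet the difference of 0.51 ± 0.23 did not pass (adjusted p = 0.362). Psmb9 lay between 10.84 and 11.48 in all libraries, with DN and CD4 0.03 apart. Psmb10 was low in replicate 1 (7.03 to 7.31) and high in the others (7.94 to 8.63), a series difference of 1.19 ± 0.10, beside 1.15 ± 0.10 for Tap2.

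Of the 9 loading and export genes, Tapbpl, a tapasin relative that edits peptides, was called as labelled. Its log2 signals were 8.60, 8.89 and 8.77 in DN, 8.74, 8.31 and 8.29 in CD4, 9.35, 9.29 and 9.32 in CD8, and 9.31, 9.04 and 8.95 in γδ. CD4 lies below CD8 throughout, by 0.87 ± 0.13 (adjusted p = 0.0173), and the difference was 0.86 ± 0.14 without CD8 1 and γδ 1 (adjusted p = 0.0172). In that fit DN was also below CD8 in Tapbpl, by 0.55 ± 0.14 (adjusted p = 0.0479), and above it in Hspa5, an endoplasmic reticulum chaperone, by 0.91 ± 0.22 (adjusted p = 0.0347).

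Of the 22 other class I heavy chain genes tested of 28 listed, 0 were called as labelled. Without CD8 1 and γδ 1, H2-T10, a non-classical heavy chain gene, was lower in DN than in CD4 (by 0.34 ± 0.04, adjusted p = 0.00231) and than in CD8 (by 0.29 ± 0.05, 0.00751), and lower in γδ than in CD4 by 0.48 ± 0.05 (0.000879) and than in CD8 by 0.43 ± 0.05 (0.00297). Fcgrt, the neonatal Fc receptor chain that also pairs with β2-microglobulin, was higher in CD8 than in DN (by 0.48 ± 0.08, 0.00767), CD4 (0.60 ± 0.08, 0.00614) and γδ (0.56 ± 0.09, 0.00862). Cd1d1, which presents lipids, was lower in DN than in CD8 by 0.62 ± 0.14 (0.0300). Its signals were 7.34, 7.77 and 7.76 in DN and 8.28 and 8.21 in CD8 2 and CD8 3. For the genes of every list, CD8 and γδ lack replicate 1 in this fit. Differences of DN or CD4 from them thus include the array series. The series difference of H2-K1 was shared by 9 of the 22, among them H2-T23 (2.06 ± 0.07) and H2-T9 (1.77 ± 0.04), while 3 of 22 were lower. Of all genes, 18.9% were higher in replicates 2 and 3 in that fit and 40.7% differed in either direction.

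Of the 10 regulators tested of 13 listed, 0 were called as labelled. When CD8 1 and γδ 1 were left out, Irf8, an interferon regulatory factor found in B cells and dendritic cells, was 3.22 ± 0.21 higher in DN than in CD4 (adjusted p = 8.14e-05) and 3.53 ± 0.23 higher than in CD8 (0.000108). Its signals were 9.52, 10.33 and 10.30 in DN and 9.26 in CD8 1, and 6.50 to 6.98 in the CD4 libraries, CD8 2, CD8 3 and γδ 1, the order seen for class II. Nfyb, a subunit of the factor that binds the Y box, was lower in DN than in CD4 by 0.36 ± 0.06 (adjusted p = 0.00687). Among 16 interferon response genes, Isg15, a ubiquitin-like modifier, was lower in DN than in CD4 by 1.43 ± 0.09 in this fit (adjusted p = 5.76e-05 by limma). Of the 16, 5 were called lower and 0 higher, beside 936 lower and 860 higher of all 16942 genes. B2m (0.07), Tap1 (-0.12) and Nlrc5 (-0.08), also known as interferon-induced, were not called in that comparison. Nlrc5 lay within 1.5 times the blank signal, and Tap1 was called lower in DN once the series was a term as well.

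The genes whose profile was most like each class I gene were sought by the root mean square (RMS) difference of log2 signals over the 12 arrays, after the mean of each series had been taken off. They were Mcat (0.0574) and Gtf3c5 (0.0594) for B2m, Insig1 (0.0334) and Olfr926 (0.0339) for H2-K1, Rasal3 (0.0316) and Mcpt8 (0.0391) for Tap1, Ubfd1 (0.108) and Luc7l (0.114) for Tap2, and Serinc1 (0.0807) and 2310030G06Rik (0.0859) for Tapbp. For H2-D1 they were Cyp26c1 (0.0140) and Zfp641 (0.0152), and for Nlrc5 Tsg101 (0.0250) and Ranbp3l (0.0255). None of the 7 was among the most alike genes of another. The median over all genes ranged from 0.0801 for H2-D1 to 0.262 for Tapbp, and the RMS of the profile itself, against a flat line, was 0.0335 for H2-D1 and 0.251 for Tapbp.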

How the data were processed

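The deposited scanner output gives, per the file headers, a median intensity per spot (Cy5, 635 nm), without background correction or normalisation. The deposited value table is intensity on a linear scale with a median of 25 on each array, a straight line of the spot signal and empty where a spot was not above background; how the authors made it is not given in the sources used here. Spot medians were corrected with limma's normexp (offset 50, fitted on all spots), taken to log2 and quantile normalised (R 4.3.3, limma 3.58.1; figures with Python 3.11.15 and matplotlib 3.10.9). The offset narrows differences of dim genes. The probe table supplied with the series gave 20690 probes 1 symbol, 2783 none and 0 several, and 25 probes marked by the scanner software were left out. Genes with a probe listed on all 3 arrays of at least 1 fraction were tested, with the probe of the highest mean per symbol. A mean for each of the 4 fractions was fitted to the 12 arrays with lmFit and eBayes; p-values were two-sided and adjusted by Benjamini-Hochberg over 16942 genes in each comparison, and genes were called at adjusted p under 0.05. Groups came from the labels. The procedure was tested on simulated data.

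The members and lists were chosen with earlier results of these data known. Named genes are the 7 members, the sort genes, H2-Aa, H2-Ab1, H2-Eb1, Cd74, Ciita, Psmb8, Psmb9 and Psmb10, up to 4 called genes of each list and comparison with the smallest adjusted p, and the 2 genes most alike to each member. H2-T23 and H2-T9 (series difference) and H2-DMa, H2-DMb1, H2-Oa and Rfx5 (called with the block or series) were chosen after their values were seen. So were Cd3g and Thy1 (T cell markers). Where the value table was empty, the array's smallest listed value was used. Deviations from fraction means of arrays with the same replicate number correlated above 0.1 in 18 of 18 pairs (0.100 to 0.735), which cannot be told apart from the array series. The number of arrays limits the precision. Alternatives were the libraries left out, the replicate number or array series as a term, array weights, other scalings, filters and probe choices, and the value table.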

Additional observations from a re-analysis of the deposited data

How the results depend on the processing

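With all 12 libraries as labelled, 0 of the 7 genes were called in each of the 6 comparisons and in the F test. The count was also 0 with the replicate number as a block (replicate block, in all 7 tests), with median scaling, without background correction, without the detection filter, with the mean of all probes, on the value table, with only the fractions compared in the fit, and without any 1 of the 12 libraries. The tests in which other settings called members follow in the order DN against CD4, DN against CD8, DN against γδ, CD4 against CD8, CD4 against γδ, CD8 against γδ and the F test. Without CD8 1 and γδ 1 the count was 1 in CD4 against γδ and 0 elsewhere, and with the array series as a term over 12 arrays it was 2 in CD4 against γδ and 0 elsewhere. Array weights gave 2, 2, 1, 1, 2, 2 and 2, beside 29.7%, 34.6%, 14.8%, 16.9%, 29.8%, 27.5% and 47% of all genes. Without CD8 1 and γδ 1 and with the array series as a term, and likewise with replicates 2 and 3 alone, the counts were 2, 1, 2, 2, 2, 2 and 3. Replicates 2 and 3 alone called 28.4%, 32.6%, 12.1%, 23.5%, 30.3%, 27.4% and 41.9% of all genes. The value table in the former fit gave 0, 1, 0, 0, 2, 1 and 2, beside 18.7%, 19.9%, 0.885%, 9.1%, 14.3%, 13.1% and 25% of all genes. Leaving out each further library gave 0 to 1 called without the array series as a term, in each test in which any was called. With that term it gave 0 to 3 in DN against CD4, 0 to 2 in DN against CD8, 0 to 2 in DN against γδ, 0 to 2 in CD4 against CD8, 2 in CD4 against γδ, 1 to 3 in CD8 against γδ and 2 to 4 in the F test. Of 2016 single-gene values under other settings, 1885 stayed on their side of the threshold with their direction or stayed uncalled, 130 became called, and 1 turned: H2-K1 in DN against CD8 at -0.53 on the value table without CD8 1 and γδ 1 and with the array series as a term. The cause was not tested. The value table and the further left-out libraries were settings chosen after seeing the data. H2-D1, Nlrc5, the second Tapbp probe and Tap1 in replicate 1 lie within 1.5 times the blank signal, which limits what they can show.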
